A study of Mus musculus with 12 samples.

Results

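The transcripts described here encode 34 proteins of the mouse lysosome, out of 52550 gene IDs counted in the series. They were chosen by gene symbol, from what the proteins are known to do, with earlier results of these data known. All 34 were found in the deposited counts. By role they are a lipase and 6 glycosidases, 7 proteases, 6 membrane proteins and cofactors, 3 transcription factors of the MiT/TFE family, and 11 subunits of the vacuolar proton pump. The pump subunits fall into 4 of the membrane-embedded V0 sector and 7 of the cytosolic V1 sector.

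RNA came from inguinal white adipose tissue (WAT) and from brown adipose tissue (BAT) of mice of 2 genotypes, with 3 libraries in each of 4 groups. The controls are labelled Mcu fl/fl, so their Mcu gene, which encodes the pore of the mitochondrial calcium uniporter, is floxed but not deleted. The AKO animals are labelled Mcu fl/fl AKO, a knockout directed to adipose tissue. All 4 groups share the floxed allele and, per the series' design text, a high-fat diet and a line made with CRISPR/Cas9, while the promoter that drives the recombinase, the floxed exon, age and sex are not stated in the labels. The labels do not say that each library came from a separate animal, so p-values measure only the spread between these libraries, which may be technical. Libraries of a group differed by more than counting noise, with a chi-square per degree of freedom of 15.1 to 75.5.

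Lysosomes digest material taken up by the cell or delivered by autophagy. Their hydrolases work at acid pH, which the proton pump maintains by spending ATP in V1 to move protons through V0. The MiT/TFE factors bind short palindromic elements near the starts of many lysosomal genes, and calcium released from the lysosome or sensed in the cytosol can bring Tfeb into the nucleus. In adipose tissue, macrophages that take up lipid from adipocytes are rich in lysosomes, and adipocytes use them for autophagy and for breaking down lipids.

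The libraries held 15692588 to 18967159 counts each. Mcu measured 18, 18.7 and 18.8 CPM (counts scaled to a common library size, here with TMM factors over all 12 libraries) in the WAT controls and 10.1, 12.5 and 10.9 in WAT AKO, with an AKO mean at 60.3% of control. The BAT libraries had 26.6, 28.8 and 24 CPM of Mcu in controls and 9.46, 14.6 and 8.28 in AKO (40.7% of control), and no AKO value reached a control value in either tissue (exact two-sided permutation p = 0.1 in each, the smallest that 3 against 3 libraries allow). The 8 brown adipocyte markers summed to 6241 to 7994 CPM in the BAT libraries and to 25.4 to 53.9 CPM in the WAT libraries. The 9 adipocyte markers summed to between 19690 and 29860 CPM in every library. Skeletal muscle markers were uneven within groups, and their sum was highest in WAT AKO 2 (16508 CPM), BAT AKO 2 (15063 CPM) and the library WAT control 1 (10307 CPM). B lymphocyte markers summed to 3.26, 323 and 2.57 CPM in the WAT controls and 517, 374 and 894 in WAT AKO.

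Per length, the saposin precursor Psap was the most abundant member in every group, and its level is given here in FPKM (scaled to gene length and library total by the authors). It measured 1095 ± 45.2 FPKM in WAT controls and 892 ± 43 in BAT controls (SD, n = 3 each). The cathepsins Ctsb (572 ± 34 FPKM) and Ctsd (347 ± 49.6 FPKM) followed in WAT controls, and Ctsz (344 ± 55.3 FPKM) and Ctsb (300.1 ± 9.9 FPKM) in BAT controls. At the other end, Mitf (2.54 ± 0.406 FPKM) and the proteolipid subunit Atp6v0c (2.37 ± 0.36 FPKM) were the lowest members in WAT controls, and their values overlapped within their spread. Within a group, the coefficient of variation of a member over its 3 libraries had a median of 6.01% in BAT AKO, 8.5% in WAT AKO, 9.32% in WAT controls and 10.5% in BAT controls. It reached 38.3% for the collagen-degrading protease Ctsk in WAT controls.

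The element bound by MiT/TFE factors was searched in the promoter windows of RefSeq (GRCm38.p6), which run from 250 bases before a gene's start to 50 after it. A window was present for 30 members, and not for Ctsb, Atp6v1b2, Atp6v1c1 and Atp6v1h. The core CACGTG stood in a window of 10 of the 30 members (33.3%) and of 8.09% of 27025 genes. The longer TCACGTGA, which contains that core, stood in 6 members (20%) and in 1.12% of genes, and its extension by a G in front and a C behind in 0 members and 0.37% of genes. All 3 motifs read the same on both strands. The members were chosen as lysosomal genes, and such genes are known for this element, so the shares are a description. The 6 members with TCACGTGA were the proteases Ctsa and Ctsd, the lysosomal calcium channel Mcoln1, the pump subunits Atp6v0d1 and Atp6v1a, and the galactosidase Gla. Ctsa and Gla held it at 2 places each. Their sites are shown with 11 bases on each side, 5′ to 3′ on the gene's strand, with the motif in capitals, so that the surrounding bases can be compared.
Atp6v0d1 (chr8:105566050-105566079, minus strand): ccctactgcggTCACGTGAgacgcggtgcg
Atp6v1a (chr16:44139373-44139402, minus strand): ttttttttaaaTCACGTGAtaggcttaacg
Ctsd (chr7:142387908-142387937, minus strand): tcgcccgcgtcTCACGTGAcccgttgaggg
Ctsa, first site (chr2:164833749-164833778, plus strand): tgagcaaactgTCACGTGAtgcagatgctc
Ctsa, second site (chr2:164833766-164833795, plus strand): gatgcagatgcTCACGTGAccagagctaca
Gla, first site (chrX:134601215-134601244, minus strand): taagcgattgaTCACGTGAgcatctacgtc
Gla, second site (chrX:134601182-134601211, minus strand): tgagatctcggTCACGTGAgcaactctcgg
Mcoln1 (chr8:3500462-3500491, plus strand): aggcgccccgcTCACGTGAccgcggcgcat

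Counted from the start used by the RefSeq window, the motif began at -4 in Atp6v0d1, -46 in Mcoln1 and -99 in Ctsd. It began at -132 in Atp6v1a, -195 and -228 in Gla, and -13 and 5 in Ctsa. In Atp6v0d1, which encodes the d subunit of V0, the motif lay across that RefSeq start. The GENCODE M21 gene begins downstream of the motif, at 105566047. For Ctsd and Mcoln1 it begins upstream of the motif, at 142388038 and 3500457, and the overlap of their windows with exons was not measured. The windows of Ctsa, Atp6v1a and Gla before the start overlap 164, 94 and 197 exon bases of that annotation, in Gla also exons of Hnrnph2. The window of Atp6v0d1 up to the end of the motif overlaps none, and is printed as an example of such a promoter (254 bases, chr8:105566061-105566314, minus strand).
Atp6v0d1 promoter: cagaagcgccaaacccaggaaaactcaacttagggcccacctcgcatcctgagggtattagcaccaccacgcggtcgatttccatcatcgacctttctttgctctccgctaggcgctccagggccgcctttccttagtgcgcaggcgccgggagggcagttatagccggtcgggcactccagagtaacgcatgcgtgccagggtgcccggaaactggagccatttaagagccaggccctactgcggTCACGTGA

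AKO was compared with control in WAT to ask which lysosomal transcripts differ in white fat when Mcu is deleted. Most of the 34 measured less in AKO: 27 had a negative log2 fold change, beside 49.5% of all genes, and 20 had every AKO library below every control library, against 1, Laptm5, with every AKO library above. No member passed edgeR's quasi-likelihood test at an adjusted p under 0.05 (Benjamini-Hochberg over 15915 genes), where 0.0189% of all genes tested passed, all of them higher. At an unadjusted p under 0.05, 17 members were lower and 1 higher, or 50% and 2.94%, beside 12% and 10.6% of all genes. The non-overlapping members made 58.8% lower and 2.94% higher, beside 15.4% and 15.2% of all genes. The median log2 fold change of the members was -0.35, beside 0.0049 over all genes tested. In bulk tissue, fewer cells of a type that is rich in lysosomes and less RNA per cell cannot be told apart.

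**Figure D1:**
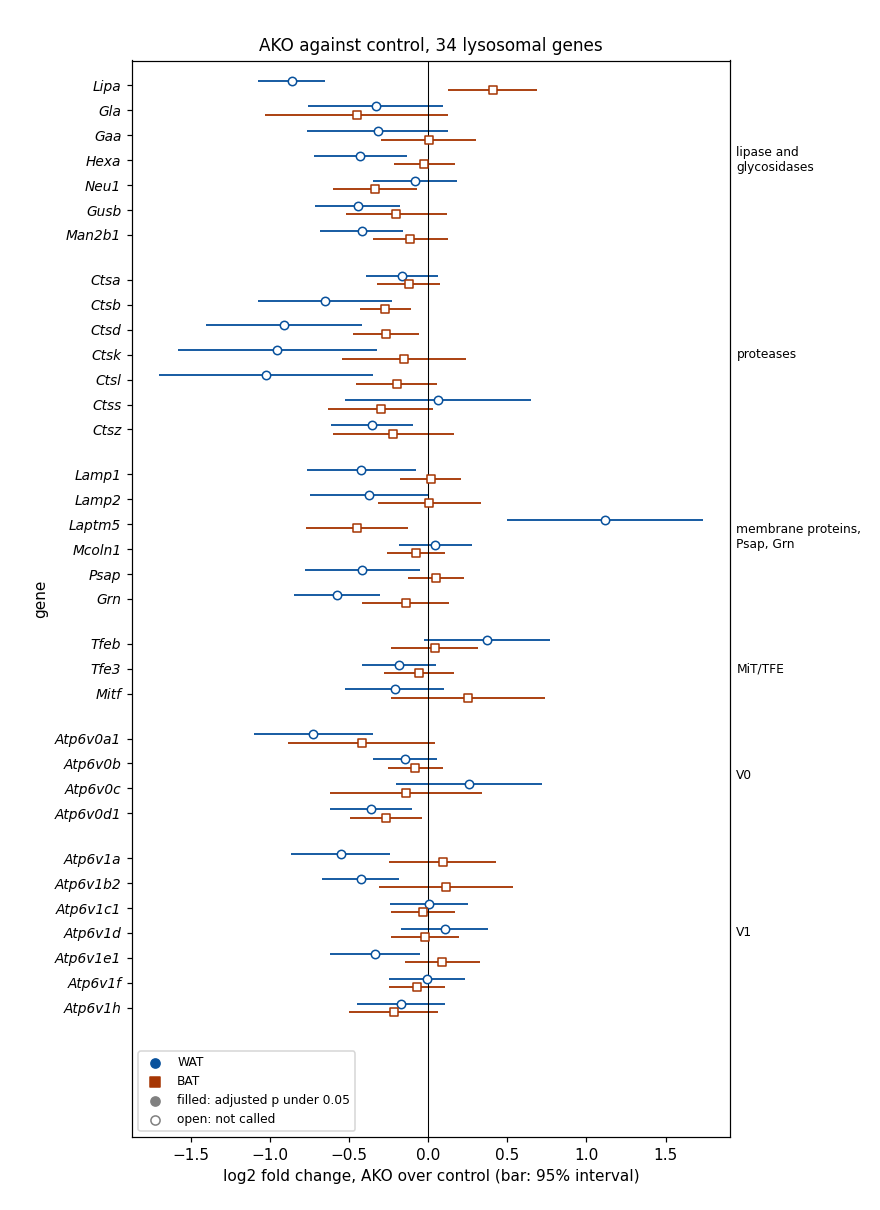
Log2 fold change of AKO over control (x axis) for each of the 34 genes (y axis, grouped by role), in WAT (circles) and BAT (squares), from 3 libraries a group, with 95% intervals as bars. All symbols are open because no member passed an adjusted p of 0.05 in either tissue. In WAT 27 members lie left of 0, Laptm5 lies farthest right at 1.12, and Lipa lies on opposite sides of 0 in the 2 tissues.

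Lipa encodes lysosomal acid lipase, which frees fatty acids and cholesterol from lipids delivered to the lysosome, and it had the smallest p of all members in WAT. It measured 90.5, 91.5 and 87.8 CPM in the controls and 53.5, 48.8 and 48.2 in AKO. The groups lay far apart relative to their spread, with the lowest control above the highest AKO library. The log2 fold change was -0.86 (SE 0.0878, 95% interval -1.07 to -0.65, adjusted p = 0.0634), or 1.82-fold lower in AKO. The 6 glycosidases, which remove sugars from glycoproteins, glycolipids and glycogen, all had negative log2 fold changes. They were -0.44 for the glucuronidase Gusb, -0.43 for the hexosaminidase subunit Hexa, -0.42 for the mannosidase Man2b1, -0.33 for the galactosidase Gla, -0.32 for the glucosidase Gaa and -0.08 for the sialidase Neu1. Gusb, Hexa and Man2b1 did not overlap between groups, and Gla, Gaa and Neu1 did.

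Among the 7 proteases, 6 measured less in every AKO library of WAT than in every control. Ctsl, a cysteine protease of the lysosome, measured 653, 647 and 1155 CPM in controls and 421, 465 and 338 in AKO. Control 3 stood above the other two controls, and the lowest control still exceeded the highest AKO library. The log2 fold change of Ctsl was -1.02 (SE 0.281, adjusted p = 0.128). Ctsd, the main aspartic protease of lysosomes, measured 763, 598 and 839 CPM in controls and 352, 481 and 355 in AKO (log2 -0.91, SE 0.204, adjusted p = 0.105). Here control 2 was the lowest control and AKO 2 the highest AKO library, and the groups did not overlap. Ctsk, a collagen-degrading cysteine protease, measured 139, 69.1 and 82.6 CPM against 48, 55.3 and 49.1 (log2 -0.95, SE 0.261, adjusted p = 0.128), and control 1 was the highest by far. Ctsb, the most abundant protease, measured 3404, 2727 and 3202 CPM against 1947, 2248 and 1825 (log2 -0.65, adjusted p = 0.126). The carboxypeptidases Ctsz and Ctsa measured -0.36 and -0.16 on the log2 scale, with no overlap between groups. Ctss, a protease of antigen-presenting cells, was the exception at 0.06 with overlapping groups (132, 137 and 79.6 CPM in controls, 108, 104 and 156 in AKO).

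Of the 6 membrane proteins and cofactors, Grn, Lamp1 and Psap measured less in every AKO library of WAT. Grn encodes progranulin, a secreted and lysosomal protein needed for the work of several hydrolases, and measured 487, 433 and 490.2 CPM in controls and 311, 317 and 333 in AKO. Its 6 values formed separate groups, with AKO libraries close to each other (log2 -0.57, SE 0.114, adjusted p = 0.0945). Psap, whose saposins present lipids to hydrolases, measured 2878, 2428 and 2785 CPM against 1959.6, 2106 and 2091 (log2 -0.41, adjusted p = 0.184). The heavily glycosylated membrane proteins Lamp1 and Lamp2 had log2 fold changes of -0.42 and -0.37, and only those of Lamp2 overlapped between groups. Mcoln1, a channel that releases calcium from the lysosome, measured 0.05 with overlapping groups. Laptm5, a lysosomal membrane protein of blood cells, measured 168, 219 and 126 CPM in controls and 339, 302 and 489.8 in AKO. Every AKO library lay above every control, and AKO 3 was the highest (log2 1.12, SE 0.257, adjusted p = 0.109). The summed T lymphocyte markers moved with it, at 9.58, 195 and 17.1 CPM in controls and 188, 201 and 338 in AKO, as did the B lymphocyte sums given above, and within controls and within AKO the library with the highest Laptm5 also had the highest sums. Their part in the Laptm5 difference was not tested.

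**Figure D2:**
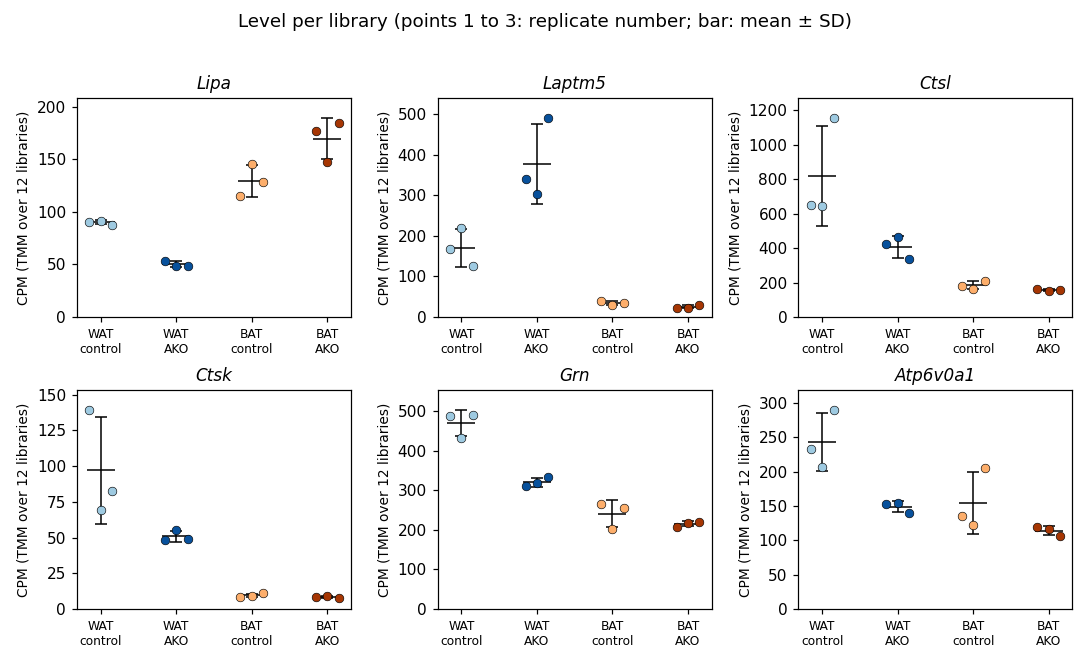
Level in CPM (y axis, starting at 0) of 6 genes in the 4 groups of 3 libraries (x axis), with each point a library and the bar the mean ± SD. Lipa lies lower in AKO than in control in WAT and higher in BAT, Laptm5 the reverse, and Ctsl, Ctsk, Grn and Atp6v0a1 have all 3 WAT AKO points below the WAT control points.

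The 11 proton pump subunits split in WAT. In V0, Atp6v0a1, the proton-conducting a subunit, measured 233, 206 and 289 CPM in controls and 153, 155 and 139.6 in AKO. The AKO libraries were tight and all below the lowest control (log2 -0.72, SE 0.156, adjusted p = 0.1). Atp6v0d1 measured -0.36 and Atp6v0b, a proteolipid of the rotor ring, -0.14, also without overlap. In V1, the catalytic subunit Atp6v1a measured 102, 92.4 and 115 CPM against 68.6, 79.5 and 66.3 (log2 -0.55, adjusted p = 0.111). Its partner in the hexamer, Atp6v1b2, measured 162, 170.4 and 163 CPM against 112, 131 and 130.1 (log2 -0.43), and the stalk subunit Atp6v1e1 -0.33. These 3 did not overlap between groups. The other 4 V1 subunits did: the regulatory subunit Atp6v1h at -0.17, the rotor subunits Atp6v1f and Atp6v1d at -0.01 and 0.11, and Atp6v1c1 at 0.01. The sign of Atp6v1f was positive and that of Mcoln1, Ctss and Atp6v1c1 negative under some other settings, given in the closing section.

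Atp6v0c, the proteolipid that lines most of the V0 ring, could not be measured with certainty. Its processed pseudogene copy Atp6v0c-ps2 is 99.7% identical over 387 bases and holds 10434 counts over the 12 libraries, against 1866 for Atp6v0c itself, so 75.1% to 91.4% of the counts of the pair lay on the copy in each library. The log2 fold change in WAT was 0.26 on the deposited counts and 0.05 with the copies summed. In BAT it was -0.14 and turned to 0.34 with the copies summed, neither called.

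The 3 MiT/TFE factors, which switch on lysosomal genes, had 0 members at an unadjusted p under 0.05 in WAT. Tfeb measured 26.1, 31.5 and 22.4 CPM in WAT controls and 29, 38.2 and 37.8 in WAT AKO (log2 0.37, SE 0.166, adjusted p = 0.239), with overlapping groups. Tfe3 measured -0.18 (adjusted p = 0.301), with every AKO library below every control, and Mitf -0.21 (adjusted p = 0.366). These are transcript levels, and where in the cell the factors lay was not measured. Of the 6 members with TCACGTGA, the log2 fold changes in WAT ran from -0.91 (Ctsd) to 0.05 (Mcoln1).

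The count of members called in WAT depended on the fit. DESeq2 called 15 lower and 1 higher, edgeR on all 12 libraries in 1 fit 10 lower and 1 higher, and edgeR without WAT control 2 called 7 lower and 1 higher, beside 10.1%, 6.28% and 10.1% of all genes in either direction. Using limma voom, leaving out any other library of the 6, or taking replicate number as a block, called 0 members. With no filter on low counts Lipa was the 1 called, beside 0.927% of all genes. WAT control 2 is the control with high lymphocyte markers. Lipa, Ctsd, Ctsk, Grn, Atp6v0a1 and Laptm5 were called with DESeq2, in the fit on all 12 libraries and in that without WAT control 2, with adjusted p of 3.81e-12, 0.00751 and 0.0105 for Lipa.

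Markers of several cell types measured less in WAT AKO along with the lysosomal members. The 17 macrophage markers summed to 1978, 1520.5 and 1442 CPM in controls and 1348, 1211 and 1382 in AKO, and 14 of 17 had a negative log2 fold change. The 7 fibroblast and progenitor markers summed to 8423, 5771 and 4252 CPM in controls and 3379.6, 3649 and 2856 in AKO, and all 7 were negative. All 6 endothelial markers (median -0.55) and 7 of 9 adipocyte markers (median -0.25) were negative too, with summed levels that overlapped between groups. The 34 members summed to 12016, 10319.8 and 12169 CPM in controls and 8006, 8846 and 8191 in AKO. The osteoclast list shares Ctsk with the members. Of its other genes, Acp5 held 33320 counts over all 12 libraries, Ocstamp 184, Oscar 127, Dcstamp 96 and Calcr 12. The keratin gene Krt5 and the milk protein gene Wap of mammary epithelium were at 0 counts in every library. The part of these cell types in the members' values was not tested.

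**Figure D3:**
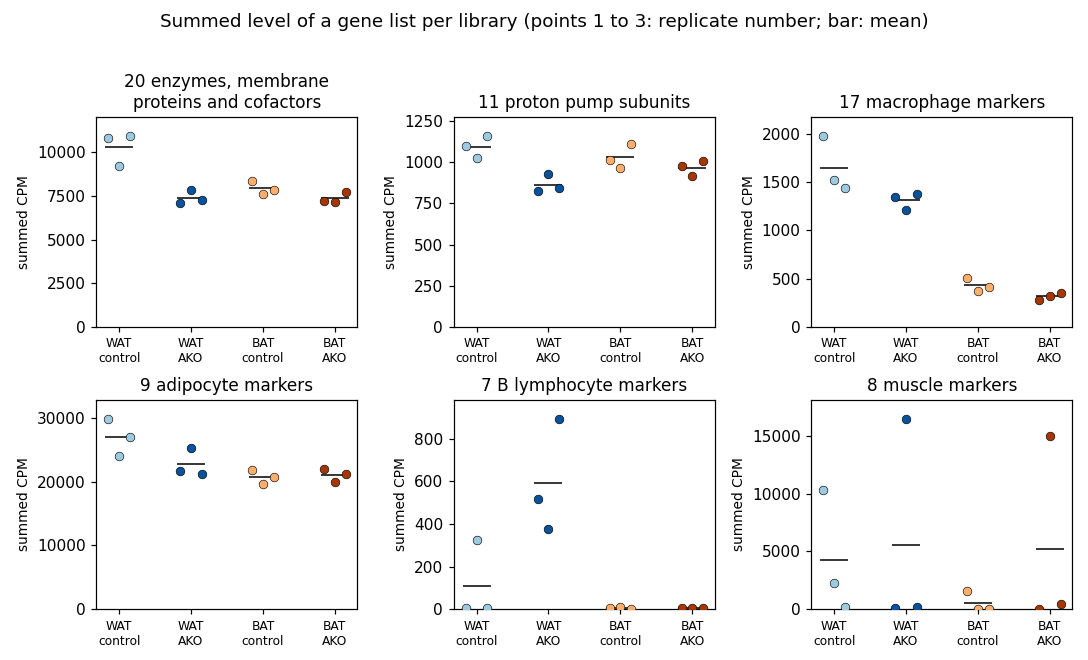
Summed level in CPM (y axis, starting at 0) of 6 gene lists in the 4 groups (x axis), with each point a library, placed left to right by replicate number, and the bar the group mean. The 20 enzymes, membrane proteins and cofactors and the 11 pump subunits lie lower in all WAT AKO libraries than in all WAT controls, macrophage markers lie far lower in BAT than in WAT, B lymphocyte markers are high in WAT control 2 and the WAT AKO libraries, and muscle markers are high in single libraries.

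Other lysosomal genes, taken from lists that do not hold the 34, also measured mostly less in AKO in WAT, without a call. The lists were chosen with earlier results of these data known, so their values are a description and not independent of the members' values. Of 32 further lysosomal enzymes, 28 had a negative log2 fold change, 16 of them at an unadjusted p under 0.05. These made 87.5% and 50%, beside 49.5% and 12% of all genes, and the median was -0.28. Lgmn, an asparagine-cutting protease, measured -0.82 (adjusted p = 0.0749) and Gm2a, the activator of ganglioside breakdown, -0.71 (adjusted p = 0.102). Of 20 further membrane proteins, 16 were negative, 7 of them at that p (80% and 35%), with a median of -0.23. Among them were the endolysosomal cation channel Tpcn2 at -0.94 (adjusted p = 0.0785) and the macrophage protein Cd68 at -0.87. Of 14 further pump subunits and assembly factors, 10 were tested and 7 were negative, 2 of them at that p (70% and 20%). Their median was -0.18. Atp6v0d2, a d subunit known from osteoclasts and macrophages, had the lowest value at -2.51 (adjusted p = 0.0705), with 13.8, 13 and 8.13 CPM in controls and 2.12, 2.74 and 1.33 in AKO. The highest value in the membrane list was that of the channel Mcoln3, named after its values were seen, at 1.89 (adjusted p = 0.353), with overlapping groups. Of 20 autophagy genes, 17 were negative, 4 of them at that p (85% and 20%), with a median of -0.21. Atg7, an activating enzyme, measured -0.37 (adjusted p = 0.125). Of 18 genes of lysosomal mTORC1 and MiT/TFE control, 11 were negative, 2 of them at that p (61.1% and 11.1%). The latter share is no higher than the 12% of all genes. Their median was -0.09, and Lamtor1, which anchors mTORC1 to the lysosome, measured -0.56 (adjusted p = 0.0945). Again 0 of these genes passed edgeR's test.

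In BAT the same comparison gave a median closer to 0. No member passed edgeR's test over 14265 genes, of which 0.0771% passed. DESeq2 and limma voom also called 0 members, beside 2.28% and 0.0631% of all genes. At an unadjusted p under 0.05, 5 members were lower and 1, Lipa, was higher, beside 6.62% and 7% of all genes. The 5 became 12 without BAT control 2, 2 without BAT control 1 or BAT control 3, and 0 without the most muscle-rich library of each group, where 2 were higher. The groups did not overlap for 6 members lower and 1 higher, or 17.6% and 2.94%, beside 9.81% and 10.2% of all genes. The median log2 fold change was -0.10, beside 0.01 over all genes. All 7 proteases were negative, beside 48.4% of all genes, from -0.30 for Ctss to -0.12 for Ctsa.

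Ctsb had the smallest p in BAT, with 2199.6, 2015 and 2069.5 CPM in controls and 1718, 1715 and 1699.7 in AKO. The AKO libraries were nearly equal and lay below the lowest control (log2 -0.27, SE 0.0681, adjusted p = 0.258). Ctsd measured 619.5, 554 and 640.3 CPM against 515, 496 and 478 (log2 -0.26, adjusted p = 0.319), without overlap. Laptm5 measured 39.5, 30.6 and 34.4 CPM against 23, 22.8 and 29.5 (log2 -0.45, SE 0.137, adjusted p = 0.287), so here every AKO library lay below every control. The sialidase Neu1 measured -0.33, Atp6v0a1 -0.42 and Atp6v0d1 -0.26, also without overlap. The 17 macrophage markers summed to 501, 372 and 410.2 CPM in BAT controls and 279, 320.3 and 350.4 in AKO, with 15 of 17 negative, and their part in these values was not tested.

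Lipa went the other way in BAT, with 115, 145 and 128 CPM in controls and 177, 147 and 185 in AKO. AKO 2, at 147 CPM, lay just above control 2 at 145, so the groups touched without overlapping. The log2 fold change was 0.41 (SE 0.12, 95% interval 0.13 to 0.69, adjusted p = 0.281). The glycosidases ranged from -0.45 (Gla) to 0.01 (Gaa). Of the V1 subunits none was separated, and their log2 fold changes ran from -0.22 (Atp6v1h) to 0.11 (Atp6v1b2). Tfeb, Tfe3 and Mitf measured 0.04, -0.06 and 0.25, with adjusted p from 0.601 to 0.892.

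The difference of the AKO effect between the tissues (the effect in BAT minus that in WAT) was tested on all 12 libraries, and Lipa was the 1 member that passed, or 2.94% of the 34, beside 0.153% of 16391 genes that passed as higher and 0.275% in either direction. Its effect in BAT exceeded that in WAT by 1.23 on the log2 scale (SE 0.154, 95% interval 0.89 to 1.57, adjusted p = 0.0228). The gene spans 34492318 to 34527474 of chromosome 19 in mm10, minus strand, and shares no exon bases with another annotated gene. As given above, all 3 AKO libraries were lower than all controls in WAT and higher in BAT. The call was kept in 6 of the 12 fits that left out 1 library. It was lost without WAT AKO 1 (adjusted p = 0.0698), WAT AKO 3 (0.0524), BAT control 1 (0.0508), BAT control 3 (0.0685), BAT AKO 1 (0.0766) and BAT AKO 3 (0.0778), and with the most muscle-rich library of each group left out (0.16). Its log2 value lay between 1.16 and 1.33 in those 12 fits.

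Laptm5 had a difference of -1.61 (SE 0.32, adjusted p = 0.0732), in the opposite direction to Lipa. With WAT and BAT libraries of the same genotype and replicate number as a block, a setting chosen after seeing the data, Laptm5 was called (-1.62, adjusted p = 0.0244) as well as Lipa (adjusted p = 0.013), and the calls over all genes rose from 45 to 261. DESeq2, which called 7.01% of 13776 genes, called 4 members: Lipa, Laptm5, Psap (0.50) and Atp6v1a (0.67). At an unadjusted p under 0.05 in edgeR, 11 members had a positive difference and 1 a negative one, beside 8.34% and 10.1% of all genes. That excess of positive values was not seen on FPKM values, where 4 to 6 members were positive and 5 to 6 negative, and the 11 fell to 5 without WAT AKO 1 or without BAT control 2. These 11 held the proteases Ctsl (0.78), Ctsk (0.76) and Ctsd (0.60), the V1 subunits Atp6v1a (0.61), Atp6v1b2 (0.50) and Atp6v1e1 (0.38), and Psap, Lamp1, Grn and Hexa at 0.43, 0.40, 0.39 and 0.36. Their adjusted p lay between 0.163 and 0.27 apart from Lipa. The median over all members was 0.23, beside -0.02 over all genes.

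BAT was compared with WAT in the controls to show how the 2 fat depots differ in these genes. Of the 34 members, 14 were lower and 9 higher in BAT (41.2% and 26.5%), beside 25.7% and 24.4% of 15031 genes tested, and 50.1% of all genes passed in either direction. The median was -0.31, beside -0.04 over all genes. With replicate number as a block, 16 were lower and 10 higher, beside 28.3% and 25.8% of all genes, and Gla, Atp6v1b2 and Atp6v0c joined the calls. Atp6v0c could not be measured with certainty, as given above, and its log2 value ran from 0.06 to 0.77 over the alternatives, which include the copies summed. On FPKM values, which are scaled to the library total, the median of all genes moved from -0.04 to between -0.25 and -0.37, and 21 to 22 members were called lower and 2 to 3 higher, beside 18.9% to 41% and 7.26% to 15.7% of all genes. Ctsz and Atp6v1f were called higher in each of the 3 FPKM fits, Atp6v1d in 1 of them, and the other 6 members called higher on counts passed as higher in none. With the most muscle-rich library of each group left out, 10 members were lower and 4 higher, beside 15.4% and 15.9% of all genes.

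**Figure D4:**
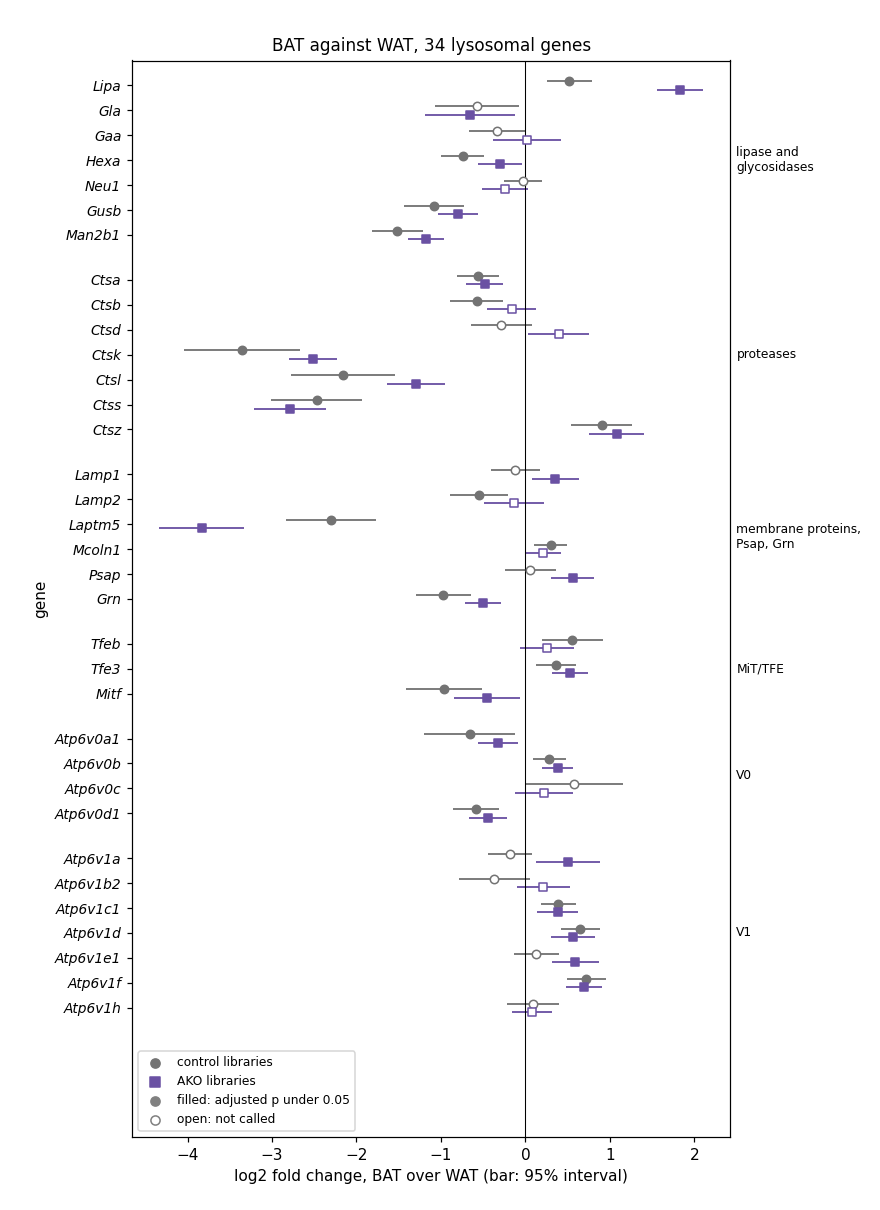
Log2 fold change of BAT over WAT (x axis) for each of the 34 genes (y axis, grouped by role) in control libraries (circles) and AKO libraries (squares), 3 libraries a group, with 95% intervals as bars and filled symbols where the adjusted p was under 0.05. Ctsk, Ctss, Laptm5 and Ctsl lie farthest left in both genotypes, and Lipa moves from 0.52 in controls to 1.83 in AKO.

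The largest depot differences were in proteases and Laptm5. Ctsk measured 139, 69.1 and 82.6 CPM in WAT controls and 8.49, 9.16 and 10.9 in BAT controls, and so was 10.2-fold lower in BAT (log2 -3.35, SE 0.288, adjusted p = 0.000183). Ctss (-2.47), Laptm5 (-2.30) and Ctsl (-2.16) were lower as well, with adjusted p of at most 0.000732. Ctss and Laptm5 are known from macrophages and lymphocytes, and 16 of 17 macrophage markers were lower in BAT, with summed levels of 1978, 1520.5 and 1442 CPM in WAT controls and 501, 372 and 410.2 in BAT controls. All 7 fibroblast and progenitor markers were lower too, and the part of either cell type in the members' values was not tested. Ctsb (-0.58) and Ctsa (-0.56) were lower, Ctsd (-0.29, adjusted p = 0.162) did not pass, and Ctsz was higher, at 661, 467 and 589 CPM against 315, 282 and 316 (log2 0.90, adjusted p = 0.003).

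The glycosidases Man2b1 (-1.52), Gusb (-1.08) and Hexa (-0.74) were lower in BAT and Lipa was higher (0.52, adjusted p = 0.00873). Grn (-0.97) and Lamp2 (-0.55) were lower, Mcoln1 was higher (0.30, adjusted p = 0.0235), and Psap (0.06) and Lamp1 (-0.12) did not pass. Among the MiT/TFE factors, Mitf was lower (-0.96, adjusted p = 0.00576) while Tfeb (0.55) and Tfe3 (0.36) were higher. Mitf measured 12.2, 14.7 and 15.1 CPM in WAT controls and 8.87, 6.41 and 6.41 in BAT controls. In V0, Atp6v0a1 (-0.66) and Atp6v0d1 (-0.58) were lower and Atp6v0b higher (0.28). In V1, 3 subunits were higher and none lower: the rotor subunits Atp6v1f (0.72, adjusted p = 0.00113) and Atp6v1d (0.65, adjusted p = 0.00192), and Atp6v1c1 (0.39). On FPKM values Atp6v1a and Atp6v1b2 were called lower instead. Atp6v1f measured 55.1, 57.9 and 49.1 CPM in WAT controls and 90.6, 85.2 and 92.6 in BAT controls, so the depots did not overlap.

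In the AKO libraries 13 members were lower in BAT than in WAT and 11 higher (38.2% and 32.4%), beside 30.5% and 28.8% of 15671 genes, and 59.3% passed in either direction. This comparison shares no library with that in controls, but shares its AKO libraries with the comparisons of genotype. All 7 V1 subunits had positive log2 fold changes, beside 49.1% of all genes, with 5 called, from 0.07 (Atp6v1h) to 0.69 (Atp6v1f), on TMM-scaled counts. On FPKM values the median of all genes lay between -0.37 and -0.56, Lipa and Ctsz were the members called higher, and Atp6v1h and Mcoln1 were among the 19 to 21 called lower, beside 31.7% to 55.6% of all genes. Lipa was 3.55-fold higher in BAT AKO than in WAT AKO (log2 1.83, SE 0.118, adjusted p = 1.68e-05). Psap (0.56, adjusted p = 0.00315), Atp6v1a (0.50), Atp6v1e1 (0.59) and Lamp1 were called higher in AKO and not called in controls, and Gla was called lower in AKO only. Mcoln1, Tfeb, Ctsb and Lamp2 were called in controls and not in AKO. For each gene, the depot value in AKO minus that in controls is the difference of the AKO effect given above, in which Lipa alone passed. With replicate number as a block, 12 were lower and 10 higher, beside 30% and 28.3% of all genes, and Hexa (adjusted p = 0.0623) and Lamp1 (adjusted p = 0.0633) lost their call.

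**Figure D5:**
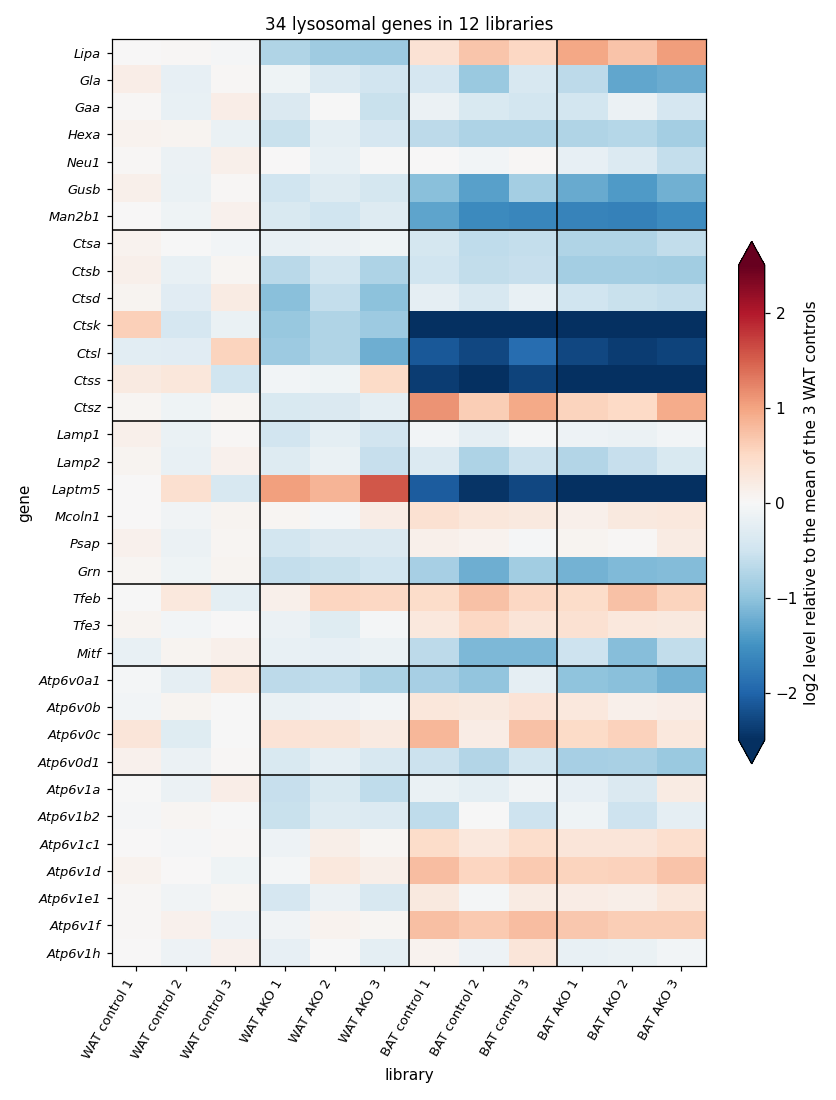
Log2 level of each of the 34 genes (rows, grouped by role) in each of the 12 libraries (columns), relative to the mean of the 3 WAT controls, with blue lower and red higher and the colour scale ending at 2.5 in either direction. Most rows are pale blue in the WAT AKO columns, and Ctsk, Ctsl, Ctss and Laptm5 are dark blue throughout BAT.

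Most further lysosomal enzymes were lower in BAT as well. In controls, 23 of 32 other enzymes were lower and 4 higher (71.9% and 12.5%), beside 25.7% and 24.4% of all genes tested. The dipeptidyl peptidase Ctsc was lower at -2.23 (adjusted p = 5.06e-05) and Gm2a at -1.70. Of 19 other membrane proteins tested, 7 were lower and 2 higher (36.8% and 10.5%). The channel Tpcn1 was higher at 0.75 (adjusted p = 0.002) and Cd63 lower at -1.29. The 10 other pump subunits and factors tested split into 5 lower and 2 higher (50% and 20%). Of 18 genes of lysosomal mTORC1 and MiT/TFE control, 6 were higher and 2 lower (33.3% and 11.1%). Among the former was Flcn, which restrains Tfe3 and Tfeb, at 1.63 (adjusted p = 0.000214). Of 20 autophagy genes, 6 were higher and 4 lower (30% and 20%), near the shares of all genes. These counts are on TMM-scaled counts.

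Reads of genes that overlap a member on the opposite strand cannot be told apart from the member's own, because the strand setting of the counting is not given. Among members this touches Ctsb (774 exon bases shared with Fdft1, 17683 counts over the 12 libraries), Ctsa (495 with Pltp, 48416 counts, and 324 with Neurl2), Hexa (255 with Tmem202), Lamp1 (249 with Grtp1), Atp6v1h (127 with Rgs20), Grn (68 with Fam171a2), Atp6v1e1 (32 with Slc25a18) and Ctsz (10 with Nelfcd). Pltp had more counts than the 34352 of Ctsa itself. On the opposite strand, Ctsl also shares 1742 exon bases with Gm47123 and Atp6v0b 243 with Gm12841, each at 0 counts. On the same strand, Ctsd shares 808 exon bases with Gm49369 and Ctsl 395 with the pseudogene Gm49230, each at 0 counts. How the counting treated reads in shared bases is not given.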

How the data were processed

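Polyadenylated RNA was sequenced from 12 adipose libraries, 3 in each of 4 groups taken from the sample titles. The authors deposited raw counts and FPKM per Ensembl gene. Per the submitters' processing notes, Bowtie2 2.2.3, HISAT2 2.1.0, HTSeq 0.6.0 and mm10 were used. No source names their roles, an annotation release or whether strand was used in counting. Symbols came from GENCODE M21, which matched 52403 of 52550 IDs and all 34 members. The members and gene lists were chosen with earlier results of these data known.

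Counts were tested in R 4.3.3 with edgeR 4.0.16 (TMM, filterByExpr at 10 counts, or 15 in total, quasi-likelihood test, Benjamini-Hochberg threshold of 0.05), on the libraries of each comparison, and on all 12 for the difference between tissues. The fit was checked on simulated data. Alternatives used DESeq2 1.42.0 and limma 3.58.1, the latter on log2 of FPKM plus 1 or 0.1, other filters, blocks and left-out libraries. Near-identical copies were sought with blastn 2.17.0. All members and Mcu are named, with up to 3 genes of each other pathway list by smallest p, and of cell-type lists the most abundant genes and those at 0.

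WAT and BAT libraries with the same genotype and number had correlated deviations from their group means (0.54, 0.23 and 0.45 in controls, 0.60, 0.70 and 0.18 in AKO). The numbers were therefore taken to pair the tissues in the block settings, although WAT AKO 3 correlated best with BAT AKO 1. Muscle markers were highest in control 1 and AKO 2 of both tissues, and their part in these correlations was not tested. The main tests between tissues used no pairing. Intervals are at 95%. Counting error weighs most on the members with the fewest counts.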

Additional observations from a re-analysis of the deposited data

Results flagged for a closer look

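The AKO effect on Lipa differed between the tissues by 1.23 on the log2 scale in a test of the difference itself (edgeR's quasi-likelihood test, adjusted p = 0.0228). All 3 AKO libraries lay below all 3 controls in WAT and above them in BAT. The call was lost in 6 of the 12 fits that left out 1 library.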

How the results depend on the processing

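The larger changes in the count of calls or the median of the 34 members are given here, and the cause of each change was not tested. In WAT, the members called for AKO against control numbered 1 with no filter, 16 with DESeq2 and 11 with all 12 libraries in 1 fit. These stood beside 0.927%, 10.1% and 6.28% of all genes. Leaving out 1 library gave 0 to 8 calls among members, beside 0.00609% to 10.1% of all genes. The median moved to -0.21 on FPKM values with either pseudocount and lay between -0.43 and -0.28 with 1 library left out. For BAT against WAT in controls, the median was -0.64, -0.66 and -0.64 in the 3 FPKM fits and -0.24 without the muscle-rich libraries, where 14 members were called, beside 31.3% of all genes. It lay between -0.37 and -0.22 with 1 library left out. In AKO it was -0.48, -0.52 and -0.48 on FPKM, 0.13 without the muscle-rich libraries and -0.022 with all 12 libraries in 1 fit, and lay between -0.031 and 0.17 with 1 library left out. For the difference of the AKO effect, 2 members were called with no filter, with a mean FPKM of at least 1 and with replicate number within genotype as a replicate block. These stood beside 0.423%, 0.897% and 1.59% of all genes. DESeq2 called 4 members, beside 7.01% of all genes, and the fit without the muscle-rich libraries called 0, beside 0%. Leaving out 1 library gave 0 to 2 calls among members, beside 0.0118% to 5.5% of all genes. The median of the difference was 0.11, 0.10 and 0.11 on FPKM and 0.15 to 0.30 with 1 library left out. For AKO against control in BAT the median lay between -0.13 and -0.07 with 1 library left out. Without the muscle-rich libraries, 13 members were higher and 9 lower for BAT against WAT in AKO, beside 27.7% and 29% of all genes. With replicate number as a block, AKO against control gave 0 calls among members in either tissue, beside 0% of all genes in WAT and 0.00701% in BAT. There the numbers did not pair the libraries, since same-numbered control and AKO libraries had correlated deviations of -0.50, -0.06 and 0.21 in WAT and -0.65, -0.31 and 0.16 in BAT, and not every library correlated best with its own number.

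Single members changed sign as follows, on the log2 scale. On FPKM values, AKO against control in WAT gave Neu1 0.052 or 0.055 and Atp6v1f 0.13. On FPKM values, AKO against control in BAT gave Gaa -0.042 or -0.043, Lamp1 -0.026 or -0.027, Lamp2 -0.032 or -0.034 and Tfeb -0.0039 or -0.0043. On FPKM values, BAT against WAT in controls gave Mcoln1 -0.054 or -0.060, Psap -0.30, Atp6v0b -0.075 or -0.077, Atp6v1e1 -0.23 and Atp6v1h -0.25 or -0.27. On FPKM values, BAT against WAT in AKO gave Gaa -0.53 or -0.54, Ctsd -0.16, Lamp1 -0.21 or -0.22, Mcoln1 -0.33 or -0.36, Psap -0.016, Tfeb -0.27 or -0.31, Tfe3 -0.041 or -0.046, Atp6v0b -0.19, Atp6v0c -0.27 or -0.35, Atp6v1a -0.080 or -0.087, Atp6v1b2 -0.36 or -0.37, Atp6v1c1 -0.18 or -0.19, Atp6v1d -0.0070 or -0.0074 and Atp6v1h -0.44 or -0.49. On FPKM values, the difference of the AKO effect gave Ctsa -0.13 or -0.14, Ctsz -0.045, Tfe3 -0.044 or -0.049, Atp6v0b -0.11 or -0.12 and Atp6v0d1 -0.077 or -0.081. With no filter, the value was Atp6v1c1 -0.018 for AKO against control in WAT, and Gaa -0.026 for BAT against WAT in AKO. With at least 2 CPM in 3 libraries, the value was Atp6v1f 0.0047 for AKO against control in WAT, and Ctsa -0.012 for the difference of the AKO effect. With limma voom, the value was Ctsa -1.4e-04 for the difference of the AKO effect. With all 12 libraries in 1 fit, the value was Atp6v1f 0.011 for AKO against control in WAT, and Gaa -0.019, Lamp1 -0.0041 and Lamp2 -0.013 for AKO against control in BAT, and Gaa -0.048 for BAT against WAT in AKO. Without the muscle-rich libraries, the value was Atp6v1c1 -0.075 for AKO against control in WAT, and Gaa -0.023, Tfeb -0.11, Atp6v1c1 0.0020 and Atp6v1d 0.048 for AKO against control in BAT, and Neu1 0.0082 for BAT against WAT in controls, and Tfe3 -0.010, Atp6v1c1 0.073 and Atp6v1h 0.015 for the difference of the AKO effect. With the copies of Atp6v0c summed, the value was Atp6v0c 0.34 for AKO against control in BAT, and Atp6v0c 0.25 for the difference of the AKO effect. With 1 library left out, the range for AKO against control in WAT was Mcoln1 -0.021 to 0.087, Atp6v1c1 -0.074 to 0.067, Atp6v1f -0.071 to 0.031 and Ctss -0.15 to 0.17. With 1 library left out, the range for AKO against control in BAT was Hexa -0.068 to 0.023, Tfeb -0.055 to 0.12, Atp6v1b2 -0.011 to 0.32, Atp6v1d -0.080 to 0.037, Gaa -0.11 to 0.095, Lamp1 -0.039 to 0.054, Lamp2 -0.096 to 0.11, Tfe3 -0.12 to 0.019, Atp6v1c1 -0.099 to 5.3e-04 and Atp6v1a -0.081 to 0.19. With 1 library left out, the range for BAT against WAT in controls was Neu1 -0.083 to 0.035, Psap -7.0e-04 to 0.13 and Atp6v1h -0.014 to 0.20. With 1 library left out, the range for BAT against WAT in AKO was Gaa -0.095 to 0.21. With 1 library left out, the range for the difference of the AKO effect was Ctsa -0.043 to 0.063, Atp6v0b -0.0095 to 0.094, Ctsz -0.052 to 0.22, Atp6v0d1 -0.015 to 0.13 and Atp6v1h -0.19 to 0.028.

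Depth limits Gla, Atp6v0c and Mitf most, with 1552, 1866 and 2305 counts over the 12 libraries and the lowest FPKM of the members in each group.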
